A study of Rattus norvegicus with 48 samples.

Results

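The cytosines described here are those on rat chromosome 6 that the study's authors listed as differentially methylated in sperm. They were taken as every row for chromosome 6 in the 6 deposited lists, 1 of gains (hypermethylated) and 1 of losses (hypomethylated) per generation, F1 to F3. There were 304 distinct cytosines, counted by position and strand, out of 3998 on all 20 chromosomes listed. Chromosome 6 held 164 of the 1721 F1 entries, 87 of the 1219 F2 entries and 129 of the 1997 F3 entries.

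The samples were epididymal sperm of Sprague-Dawley rats, an outbred strain, measured by reduced representation bisulfite sequencing, in which CpG-rich fragments are read after bisulfite has turned unmethylated cytosines into uracil. Founder females (F0) were gavaged with corn oil in the control line or with an Arctic mixture of persistent organic pollutants (POPs), named organochlorines in the sample labels, at 500 µg per kg body weight, until parturition. The labels give 6 control and 6 organochlorine samples in each of 4 numbered generations, and their protocols state that F1, F2 and F3 males were killed at 90 days of age. Only the founder females received the mixture, so both lines of every generation shared strain, tissue and age. The lists are named by generation as F1, F2 and F3, whereas the 36 samples that cite them carry the generation numbers 2, 3 and 4, and generations are called here as the lists call them. The prefixes of the sample titles differ between labelled generations 1 and 2 and labelled generations 3 and 4, so these prefixes and that split of generations cannot be told apart.

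DNA methylation at CpG dinucleotides is copied to the new strand at cell division and is largely reset in primordial germ cells and again in the early embryo. Imprinted regions keep a parental mark through the second of these resets. Rat chromosome 6 carries Dnmt3a, which encodes a de novo DNA methyltransferase, and the imprinted genes Dlk1, Meg3, Rtl1 and Dio3, according to the RefSeq table of the assembly GRCr8. The positions of the lists are on Rnor_5.0, so no listed cytosine was placed in or near a gene, and exonic, intronic and regulatory context was not analysed here.

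Each listed value is the authors' methylation difference between the 2 lines in percentage points, positive in the hypermethylated lists and negative in the hypomethylated lists. The deposited description does not say which line was subtracted from which, so the terms are used in the sense of the lists. Values of single animals, group levels and read coverage were not analysed here, so no replicate error can be attached to any difference and the depth is unknown. The lists were made with a minimum difference of 20 points and a false discovery rate below 1%, so the members were chosen by these deposited differences and q-values together with their chromosome. Their sizes and directions are therefore given as a description, with no test. By the authors' deposited table, the smallest absolute differences listed on chromosome 6 were 20.2, 20.02 and 20.003 points for F1, F2 and F3. Cytosines that were measured but not listed were not analysed here.

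Listed cytosines of a generation were joined into loci where the gap to the next was 1000 bp or less, since neighbouring cytosines can be read on the same fragments. Chromosome 6 then held 85 loci in F1, 46 in F2 and 98 in F3. Single cytosines made up 68, 40 and 73 of them. Hypermethylated loci, by the sign of the mean difference, made up 58.8% in F1, or 50 of 85 (47.6% to 69.4% as the 95% interval by the exact Clopper-Pearson method), against 63.8% of F1 loci on all chromosomes. In F2 the share was 23 of 46, or 50% (34.9% to 65.1%), against 55.4% on all chromosomes. For F3 it was 45 of 98, or 45.9% (35.8% to 56.3%), against 46.7% on all chromosomes. All 3 intervals, which cover counting error only, held the share of all chromosomes. The F1 majority did not hold over all cytosines: of the 164 F1 cytosines, 72 were hypermethylated and 92 hypomethylated. Of these 92, 29 lay in a single run, and without it 63 hypomethylated cytosines stood against the 72. Among F1 loci with at least 2 cytosines, 7 of 17 (41.2%) were hypermethylated.

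The differences on chromosome 6 were of the size seen elsewhere, without the most extreme values. The median absolute differences of loci were 26.2, 27.1 and 27.3 points for F1, F2 and F3, calculated from the authors' deposited table. Over all other chromosomes these medians were 24.9, 26.3 and 25.9 points. By the authors' deposited table, single cytosines reached 56.7 and -47.2 points in F1, 45.8 and -53.0 in F2, and 59.2 and -47.3 in F3. Per the authors' deposited table, the extremes of the other chromosomes were 70.6 and -79.7 points in F1, 71.0 and -83.7 in F2, and 76.7 and -84.9 in F3. Those extremes were taken over 1557, 1132 and 1868 cytosines, against 164, 87 and 129 on chromosome 6. The extremes of single other chromosomes were not analysed here. The largest F1 gain was at position 113625394 on the minus strand, and the largest F3 gain at position 136471345 on the plus strand. The largest F2 loss was at position 109042003 on the plus strand, where the authors' deposited table also gave -30.5 points in F3.

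Where both strands of a CpG were listed, they had the same sign. F1 had 20 such CpGs out of 144 listed, F2 had 5 of 82 and F3 had 17 of 112, with no exception. At the other CpGs only 1 strand was listed, so the comparison covers only CpGs with both strands past the minimum of the lists. The gap between the strands had medians of 3.75, 1.54 and 3.98 points for F1, F2 and F3, and reached 23.8 points at 1 CpG in F3. The strands are read separately, so this gap shows how far 2 listed values of one CpG can lie apart in the same contrast.

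**Figure D1:**
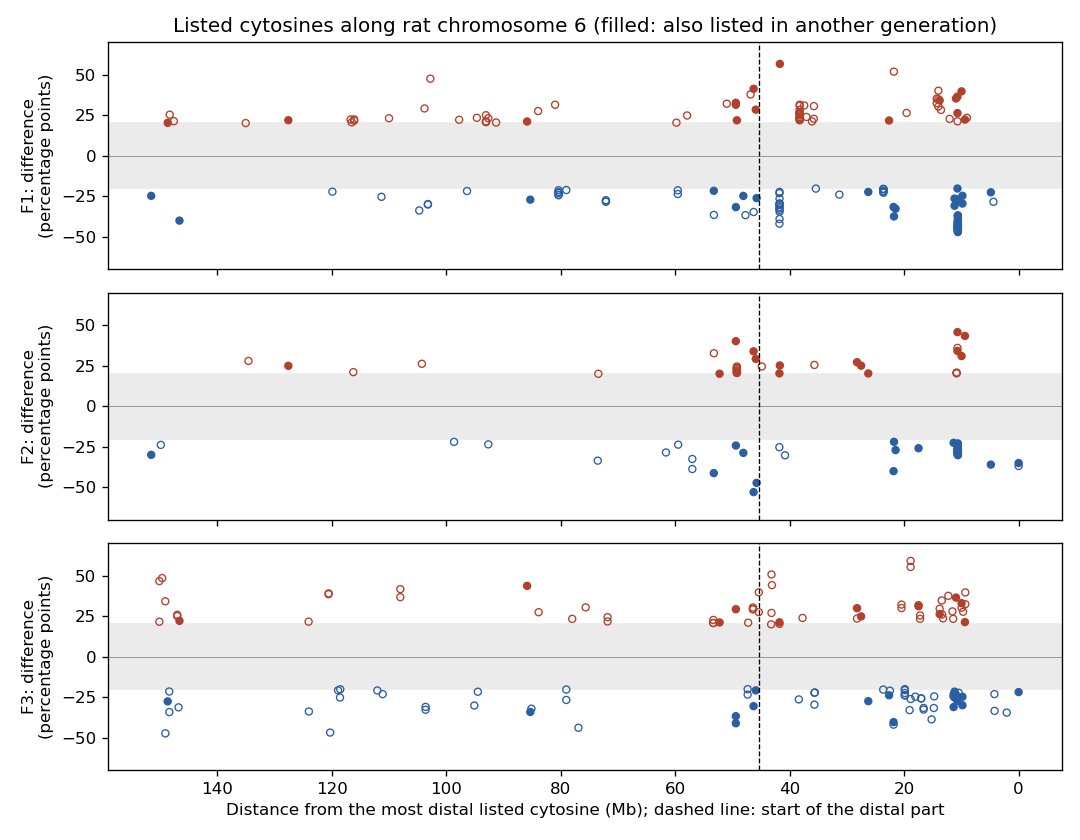
Methylation difference (percentage points) of every listed cytosine on chromosome 6 in F1, F2 and F3, against the distance in Mb from the most distal listed cytosine. Red points are hypermethylated and blue points hypomethylated, filled points were also listed in another generation, the grey band marks differences under 20 points and the dashed line the start of the distal part. Points crowd to the right of the dashed line, which held 39 of the 85 F1 loci, 22 of the 46 F2 loci and 55 of the 98 F3 loci.

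Listed loci crowded toward the distal end of the chromosome. Positions above 110 Mb made up 29.9% of the span between the first and last listed cytosine and held 39 of 85 F1 loci (45.9%, 95% exact interval 35.0% to 57.0%), 22 of 46 F2 loci (47.8%, 32.9% to 63.1%) and 55 of 98 F3 loci (56.1%, 45.7% to 66.1%). Over the loci of any generation, the density was 1.92 per Mb above 110 Mb and 0.866 per Mb below, a ratio of 2.21. The ratio was 1.99 in F1, 2.15 in F2 and 3.00 in F3. The boundary at 110 Mb was chosen with earlier results of these data known, so these shares are a description and the crowding was not tested. Their intervals cover counting error only and are too narrow if neighbouring loci are not independent. The nearest loci to the boundary were 43.6 kb below it, at 109956357, and 474 kb above it, at 110474322. A distal excess was not confined to this chromosome: in the corresponding end fraction, chromosome 6 held 48.6% of its loci, the fourth highest of 20 chromosomes, and the other 19 ranged from 9.64% to 62.2% with a median of 38.2%. The spread of CpG-rich fragments along the chromosome was not analysed here.

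The crowding was not even along the distal part. The 10-Mb bin from 140 to 150 Mb held 18 F1 loci, 7 F2 loci and 25 F3 loci, more than any other bin in F1 and F3. In F2 the fullest bin was that from 100 to 110 Mb, with 11 loci, just proximal to the boundary. No generation had a locus between 10 and 20 Mb, and the longest empty stretch ran 11.6 Mb, from 8754862 to 20328857. Without the block from 140134280 to 146308833, 21 of 67 F1 loci (31.3%), 15 of 39 F2 loci (38.5%) and 30 of 73 F3 loci (41.1%) lay above 110 Mb. With the block taken out of the span as well, positions above 110 Mb made up 26.9% of it.

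**Figure D2:**
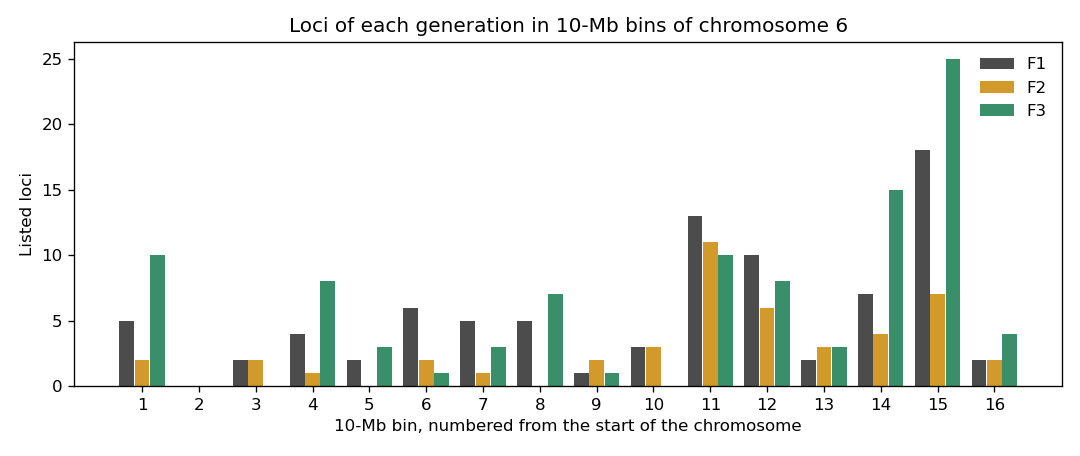
Number of listed loci of F1, F2 and F3 (bars, linear axis from 0) in 10-Mb bins numbered from the start of chromosome 6. The bin numbered 15 holds 18 F1, 7 F2 and 25 F3 loci, and the bin numbered 2 holds none.

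The chromosome was next divided into blocks, joining loci of any generation that lay at most 1 Mb apart. The 179 loci formed 44 blocks, of which 16 held 1 locus and 18 held at least 3. These 18 contained 143 loci, or 79.9%. All 3 generations were represented in 11 of the 18, a count that was not analysed here for the other chromosomes. The other 19 chromosomes had 3 to 32 blocks with at least 3 loci, with a median of 11. The fullest block of chromosome 6 held 20.1% of its loci, which ranked 8 of 20 chromosomes. On the others that share ranged from 6.30% to 79.5% with a median of 16.9%. The 5 fullest blocks held 36, 13, 13, 12 and 12 loci, and they differed in which generations filled them. For their counts of recurrent cytosines, 22.7% of all cytosines on chromosome 6 and 20.2% on all chromosomes were listed in more than 1 generation. Over the whole chromosome, 47.5% of the 179 loci were listed in F1, 25.7% in F2 and 54.7% in F3.

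A pair of blocks was filled mainly in F3. Of the 12 loci from 134875952 to 138739201, 11 were listed in F3, 1 in F1 and 1 in F2, and 1 of its 21 cytosines was listed in more than 1 generation. Its F3 loci were 5 hypermethylated and 6 hypomethylated. This block held the largest F3 gain, a CpG at 136471345 and 136471346 with 59.2 and 55.5 points on its strands per the authors' deposited table, 83 bp from a cytosine at -26.1 points. The block near the proximal end, from 5239751 to 8754862, was similar in this respect. There 10 of 13 loci were listed in F3, 4 in F1 and 1 in F2, and the 10 F3 loci were 5 hypermethylated and 5 hypomethylated. Its F3 values by the authors' deposited table ranged from -47.3 points at 6292458 to 48.6 points at 5726404. Each of these blocks held F3 loci of both directions. In the proximal one, 3 hypermethylated F3 loci in a row were followed by 4 hypomethylated loci in a row.

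The other 2 blocks of this size were not filled mainly in F3. From 116943246 to 119925336, 7 of 12 loci were listed in F1, 6 of them hypermethylated, with 1 locus in F2 and 4 in F3. None of its 28 cytosines was listed in a further generation. From 107252244 to 110474322, F1 had 7 of 13 loci, F2 had 6 and F3 had 6, each divided almost evenly in direction. In that block 5 of 17 cytosines (29.4%) were listed in more than 1 generation. On the whole chromosome it was 69 of 304 (22.7%), and 27 of these 69 lay in 1 run of another block.

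The fullest block lay close to the distal tip, from 140134280 to 146308833, a span of 6.17 Mb. It held 36 loci and 75 distinct cytosines, and 40 of these cytosines were listed in at least 2 generations. Of the 40, 27 belonged to a single run, and outside that run 13 of 45 (28.9%) recurred. On all of chromosome 6 it was 69 of 304 (22.7%), a count that includes the 27 of the run. The share of the chromosome without the run is therefore lower than 22.7%. F1 had 18 loci there, 13 of them hypermethylated, F2 had 7 with 5 hypermethylated, and F3 had 25 with 13 hypermethylated. Its proximal part held long stretches of one direction in F1 and F3. In F3, 6 hypomethylated loci in a row from 138307293, in the preceding block, to 140590579 were followed by 7 hypermethylated loci in a row from 141547000 to 143909744. In F1, 8 hypermethylated loci in a row ran from 135771180 to 143284153.

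The F1 and F3 stretches overlapped in an interval that F2 left empty. Between 141027719 and 143909744, a span of 2.88 Mb, all 8 F1 cytosines were hypermethylated, with a lowest value of 22.8, a median of 33.3 and a highest of 40.2 points per the authors' deposited table. All 8 F3 cytosines were hypermethylated too, with a lowest value of 23.4, a median of 27.2 and a highest of 37.6 points by the authors' deposited table. F2 had none there. The same cytosine was seldom involved, since only position 141547001 was listed in both generations, at 34.2 points in F1 and 26.3 in F3 per the authors' deposited table. These limits were chosen after the values had been seen. Distal to this interval, to the end of the block, F1 had 6 hypermethylated and 5 hypomethylated loci, F2 had 5 and 2, and F3 had 6 and 9. There the F1 direction changed after every 1 or 2 loci.

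**Figure D3:**
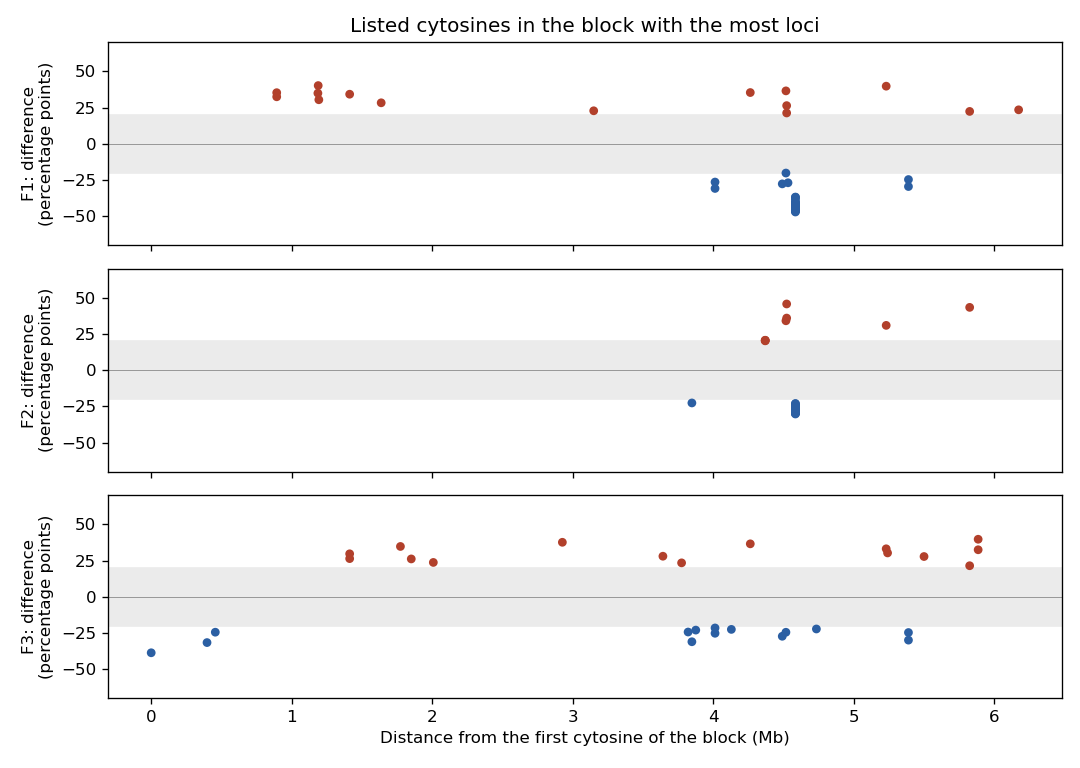
Methylation difference (percentage points) of the cytosines of F1, F2 and F3 in the fullest block, against the distance in Mb from its first cytosine; red is hypermethylated, blue hypomethylated and the grey band marks differences under 20 points. F1 and F3 points from 0.893 to 3.78 Mb are all hypermethylated, with no F2 point, and the column of blue points at 4.59 Mb in F1 and F2 is the longest run.

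Over the whole chromosome, neighbouring loci were close to evenly divided between the same and opposite signs in F1. They shared their sign less often than not in F2 and more often than not in F3. Among neighbours of a generation at most 1 Mb apart, 24 of 51 F1 pairs (47.1%), 8 of 21 F2 pairs (38.1%) and 42 of 65 F3 pairs (64.6%) had the same sign. Over the other chromosomes these shares were 57.6%, 53.4% and 56.8%. Each pair shares loci with the next and the counts are small, so these shares are given as a description and their differences were not tested.

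Runs, defined as loci with at least 5 cytosines of one direction in a generation, numbered 5 in F1, 2 in F2 and 1 in F3, at 7 places. Loci with at least 5 cytosines were also counted on the other chromosomes, with no condition on direction. For F1 they were 18 of 1198 loci there, against 5 of 85 on chromosome 6. The F2 lists gave 20 of 785 there and 2 of 46 here. F3 had 29 among 1294 loci elsewhere and 1 among 98 here. The share on chromosome 6 was thus higher for F1 and F2 and lower for F3, on small counts, and was not tested. The longest run lay in the fullest block, from 144720006 to 144720227. It held 30 distinct cytosines within 222 bp, all on the plus strand and all hypomethylated. F1 listed 29 of them and F2 listed 28, with 27 in common, and F3 listed none. The F1 values by the authors' deposited table lay between -47.2 and -36.9 points, with a mean of -43.1 and an SD of 2.66 over the 29 cytosines. The F2 values per the authors' deposited table lay between -30.2 and -23.0 points, with a mean of -27.2 and an SD of 1.97 over the 28 cytosines. These cytosines can be read on the same fragments, and the SD is a spread along the run and not a replicate error. The ranges of the generations did not overlap, and F1 was the more hypomethylated at all 27 shared cytosines, by 10.8 to 21.2 points with a median of 16.2.

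The cytosines of this run had a repeated spacing. Of the 29 gaps between neighbours, 18 were 2 bp, 8 were 14 bp, and the others were 3, 18 and 52 bp. Of the 29 cytosines with room for it, 23 had another listed cytosine exactly 18 bp further on, more than at any other step from 2 to 60 bp. The sequence itself was not analysed here. This run alone made up 29 of the 92 hypomethylated cytosines of F1 on the chromosome and 28 of the 52 of F2, so counts of cytosines, unlike counts of loci, are led by it.

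**Figure D4:**
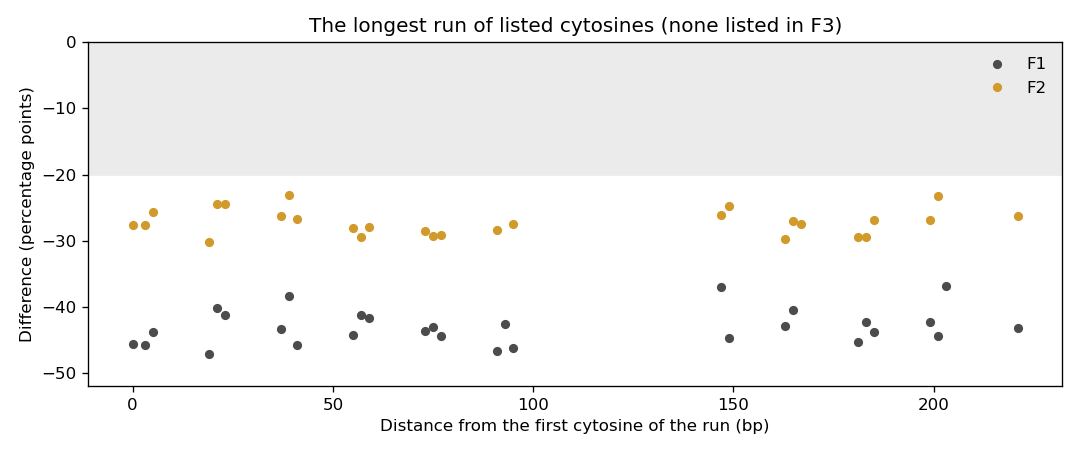
Methylation difference (percentage points) at the cytosines of the longest run in F1 and F2, against the distance in bp from its first cytosine; the grey band marks differences under 20 points. F1 values lie between -47.2 and -36.9 and F2 values between -30.2 and -23.0, with a 52 bp gap in the middle of the run.

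Apart from 1 cytosine, the other 6 runs were each listed in 1 generation. Most listed cytosines were of 1 generation, 235 of 304 on chromosome 6 and 3190 of 3998 on all chromosomes. Recurrence of runs on other chromosomes was not analysed here. From 117093675 to 117093813, F1 held 16 hypermethylated cytosines between 21.9 and 31.5 points by the authors' deposited table, at 9 CpGs of which 7 were listed on both strands. From 113575061 to 113575208, F1 held 11 hypomethylated cytosines between -39.1 and -22.3 points per the authors' deposited table. The F1 runs from 131716514 to 131716658 and from 74975746 to 74975823 had 7 and 6 hypomethylated cytosines, with means of -21.5 and -23.0 points by the authors' deposited table, close to the minimum of the lists. In F2, 10 hypermethylated cytosines from 106124196 to 106124327 had a mean of 22.3 points per the authors' deposited table, and the last of them was also listed in F1, at 21.9. The F3 run, from 135462388 to 135462503, held 5 hypomethylated cytosines with a mean of -22.1 points by the authors' deposited table. A run close to the minimum in one generation could lie just under it in another, and such values were not analysed here.

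Recurrence was then examined, in contrasts that used different animals in each generation. Only 1 generation listed 235 of the 304 cytosines, while 62 recurred in a pair of generations and 7 in all 3. The overlap of F1 with F2 was 47 cytosines, which was 28.7% of the F1 list (95% exact interval 21.9% to 36.2%) against 20.0% on all chromosomes, and 54.0% of the F2 list (43.0% to 64.8%) against 28.2% on all chromosomes. The longest run accounted for 27 of the 47. Without it, 20 cytosines were shared, 14.8% of the F1 list (9.29% to 21.9%) and 33.9% of the F2 list (22.1% to 47.4%). The share of the F1 list then lay below that of all chromosomes and the share of the F2 list above it. Both intervals held the value of all chromosomes. Runs on other chromosomes were not left out of these comparisons. Of the 87 F2 cytosines, 28 lay in the longest run and 10 in the run from 106124196. Cytosines of a run may not be independent, in which case the intervals of these shares and of those with F3 are too narrow.

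Sharing with F3 was lower on chromosome 6. F1 and F3 shared 21 cytosines, 12.8% of the F1 list (8.10% to 18.9%) against 22.1% on all chromosomes, and 16.3% of the F3 list (10.4% to 23.8%) against 19.1% on all chromosomes. F2 and F3 shared 15, which was 17.2% of the F2 list (9.98% to 26.8%) against 28.3% on all chromosomes, and 11.6% of the F3 list (6.66% to 18.5%) against 17.3% on all chromosomes. Without the longest run the share was 15.6% (9.89% to 22.8%) of the F1 list for F3, and 25.4% (15.0% to 38.4%) of the F2 list, and both intervals then held the value of all chromosomes. The cytosines callable in each generation were not analysed here, so recurrence was not tested against chance.

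Shared cytosines kept their direction between F1 and F2, and less regularly with F3. The 47 cytosines of F1 and F2 lay in 21 loci, 20 of which had the same direction (95.2%, 95% exact interval 76.2% to 99.9%), against 93.2% on the other chromosomes. For F2 and F3 it was 10 of 15 loci (66.7%, 38.4% to 88.2%) against 88.7% elsewhere, and for F1 and F3 it was 12 of 18 loci (66.7%, 41.0% to 86.7%) against 73.9% elsewhere. The intervals of F1 with F2 and of F1 with F3 held the value elsewhere, and the F2 and F3 interval ended just under it. Neighbouring loci may not be independent, in which case these intervals are too narrow.

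Most loci with opposite directions in F1 and F3 lay below 110 Mb, where 5 of 7 shared loci were opposite, against 1 of 11 above it. Of these 5, 2 lay below 10 Mb and 3 between 100 and 110 Mb, close to the boundary. By their shared cytosines, all 8 loci shared by F1 and F3 in the fullest block had the same direction, 4 hypermethylated and 4 hypomethylated. In F1, 1 of them was mixed, with -20.2 points at 144652420 and 36.5 at 144652484 per the authors' deposited table. Only 144652420 was shared with F3, at -24.5 points, and the F1 mean over both cytosines was 8.14 points. Outside that block only 3 shared loci lay above 110 Mb, and 1 of them was opposite. For F2 and F3, 3 of 5 loci below 110 Mb and 2 of 10 above it were opposite, and for F1 and F2 the counts were 0 of 10 and 1 of 11. The numbers are small and the difference between the parts was not tested.

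**Figure D5:**
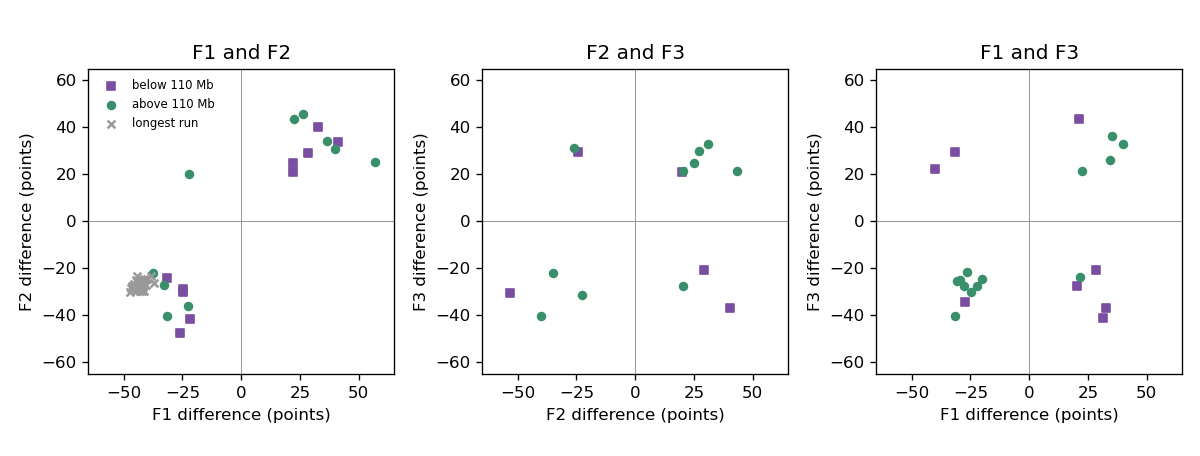
Methylation difference (percentage points) of cytosines listed in 2 generations, plotted against each other for each pair of generations; squares lie below 110 Mb, circles above it, and crosses are the longest run. Points in the upper left and lower right of each plot have opposite directions, and for F1 and F3 most of these are squares.

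The opposite loci below 110 Mb included 2 that were listed in all 3 generations within 6550 bp of each other, both with the sign turned over in F3. The minus-strand cytosine at 105942364 had 32.7 points in F1, then 40.2 in F2, and -36.7 in F3 per the authors' deposited table, and the plus strand of that CpG was at 31.5 in F1 and -41.1 in F3. The cytosine at 105948914 had -31.7 points in F1, then -24.3 in F2, and 29.4 in F3 by the authors' deposited table. So a gain in F1 and F2 beside a loss in F1 and F2 became a loss beside a gain in F3. Position 109426615 also changed sign in F3, at 28.5, 29.3 and -20.8 points per the authors' deposited table, with the F3 value next to the minimum. Position 8754862 went from -40.1 points in F1 to 22.2 in F3 by the authors' deposited table, without being listed in F2. Position 6703855 went the other way, from 20.4 to -27.6 points per the authors' deposited table.

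Above 110 Mb, cytosines shared by a pair of generations had opposite directions at 3 places. The authors' deposited table gave -22.4, 20.3 and -27.4 points for F1, F2 and F3 at 129075085, the only cytosine listed in both F1 and F2 with opposite signs. At 132707843 it was 21.8 points in F1 and -23.8 in F3 by the authors' deposited table. The CpG at 137853782 and 137853783 had 31.8 and 31.2 points in F3, while its minus strand was at -25.9 in F2, per the authors' deposited table. Neighbouring cytosines could also differ in sign without being shared. From 113556957 to 113557065, the F1 cytosines were at -42.0 and -23.1 points, that of F2 at 20.3, and those of F3 at 21.3 and 20.3, by the authors' deposited table. From 62704267 to 62704311, an F1 cytosine at 23.2 points lay beside an F2 cytosine at -23.5 per the authors' deposited table.

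Only 3 cytosines kept one direction in all 3 generations, all above 110 Mb. Position 133490422 was hypomethylated throughout, at -31.6, -40.1 and -40.4 points in F1, F2 and F3 by the authors' deposited table, and its other strand was at -42.0 in F3. Position 145366144 was hypermethylated at 39.8, 31.0 and 33.1 points per the authors' deposited table. The third, 145960304, was at 22.3, 43.4 and 21.4 points by the authors' deposited table. The remaining 4 of the 7 cytosines listed in all 3 generations changed sign, against 17 of 131 on all chromosomes.

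The other leading cytosines of F1 and F2 were partly shared, and those of F3 mostly not. The F1 gain at 113625394 was 56.7 points in F1 and 25.2 in F2 per the authors' deposited table, and that at 109039361 was 41.3 and 33.9. F1 gains of 51.9 points at 133548683, 47.6 at 52580645 and 40.2 at 141323027 by the authors' deposited table were listed in no other generation. In F2, gains of 45.8 points at 144657641 and 34.2 at 144652484 stood beside 26.3 and 36.5 in F1 per the authors' deposited table. The F2 losses at 109568247 and 102095344, -47.3 and -41.3 points, were -26.2 and -21.7 in F1 by the authors' deposited table. F3 gains of 50.8 points at 112167308, 46.7 at 5239751 and 44.2 at 112243779, and losses of -46.8 at 35074402 and -43.9 at 78448046, were listed in F3 alone per the authors' deposited table. At 133566791 the authors' deposited table gave -37.5 points in F1 and -22.0 in F2, and losses of -42.0 at 113557065 in F1 and -38.8 at 98338250 in F2 stood alone.

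Outside the longest run, recurrent cytosines had larger median absolute differences than cytosines of 1 generation. The medians were 29.0 points over 28 recurrent and 23.8 over 31 single cytosines in F2, 27.4 over 34 and 24.9 over 101 in F1, and 27.4 over 29 and 26.5 over 100 in F3, calculated from the authors' deposited table. In F2, 9 of the 31 single cytosines lay in the run from 106124196 to 106124327, and without that run, left out after the values had been seen, the medians were 29.3 over 27 and 25.4 over 22. All lists begin at 20 points, and the part of that minimum in these gaps was not tested.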

How the data were processed

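Reduced representation bisulfite sequencing of epididymal sperm DNA was described for 48 samples in 8 groups of 6. Per the submitters' processing notes, the build was Rnor_5.0 and the tools included methylKit 0.9.4, Bismark 0.14.5, Trim Galore 0.4.0, bedtools 2.17, SAMtools 1.2 and CASAVA. Their settings, the coverage minimum, the model and the treatment of strands are not given in the sources used. The authors calculated a signed methylation difference in percentage points, a p-value and a q-value for each cytosine, and, as the description file deposited beside the lists states, kept cytosines differing by at least 20 points at a false discovery rate under 1%.

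Cytosines at most 1000 bp apart were merged into loci by generation, and loci of any generation at most 1 Mb apart into blocks. Shared cytosines had identical position and strand. Intervals are 95% exact Clopper-Pearson intervals and cover counting error only. No test was made, because the lists hold no samples. Named sites were the 5 largest differences of each direction and generation, loci with at least 5 cytosines of one direction, cytosines listed in all 3 generations, up to 10 loci of opposite direction and the 5 fullest blocks. The members, rules and alternatives were chosen with earlier results of these data known. The merging was tested on simulated lists. The planned lookup of chromosome 6 genes was not run, because the annotation at hand was of another build. Calculations used SciPy 1.17.1, pandas 2.3.3 and numpy 2.4.6 in Python 3.11.15, and plots matplotlib 3.10.9.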

Additional observations from a re-analysis of the deposited data

How the results depend on the processing

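Over 17 results and 103 alternative settings, 82 values stayed within the interval of the main value (or within 1.5 times a count) and 21 did not. The median absolute differences and the number of blocks with at least 3 loci did so under every alternative run. Among loci with at least 2 cytosines, the hypermethylated share was 41.2% in F1 and 60% in F3, and the distal share was 58.8% in F1 and 66.7% in F2. With a minimum difference of 30 points, the distal share was 60.6% in F1, and the share of cytosines listed again in another generation was 11.4% in F1, 33.3% in F2 and 11.8% in F3, against 37.2%, 63.2% and 22.5% as listed. With the distal part starting at 100 Mb its share was 61.2%, 71.7% and 66.3% in F1, F2 and F3, and starting at 120 Mb it was 34.1% in F1. Without the longest run, the share listed again was 25.2% in F1 and 47.5% in F2. Directions of loci shared by F1 and F2 were the same in 100% with a minimum of 25 points and at q of at most 1e-5. Leaving out the fullest block was chosen after the values had been seen: the distal share was then 31.3% in F1 and 41.1% in F3, the share listed again 19.5% in F1 and 46% in F2, and 40% of 10 loci shared by F1 and F3 kept their direction. The cause of these shifts was not tested. Some settings leave fewer cytosines or loci, and starting the distal part at 100 or 120 Mb changes the region that is counted. No paired analysis was possible because the lists hold group differences and no values of samples, and for the same reason no replicate could be left out. Depth is unknown, so what it limits cannot be stated.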
